A study of Mus musculus with 14 samples.

Results

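The genes described here were 8 genes of the T-cell surface: Cd3d, Cd3e, Cd3g and Cd247 of the T-cell receptor (TCR) complex, the co-receptor gene Cd4, and Cd2, Cd5 and Cd6. They were chosen by name, and every probe whose deposited gene name was 1 of these 8 symbols was taken, which gave 16 probes, among 36870 different names on the array. RNA came from CD4+ T-cells of Roquin san/+ mice (n = 7) and wild-type mice (n = 7), and each of the 14 samples was hybridised to 1 one-colour array. Roquin san/+ mice are heterozygous for the sanroque mutation of Roquin, an RNA-binding ubiquitin ligase, and were profiled as a model of lymphoma of follicular helper T-cells. The genotype was the only difference named in the labels, no treatment was named, and the age and sex of the mice and whether a Roquin san/+ mouse had a lymphoma were not given in the sources used here. Nothing in the labels said that the cells came from separate mice, so the tests measure the spread between samples.

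The αβ TCR recognises peptide bound to an MHC molecule but has no signalling part of its own. It reaches the cell surface together with the CD3 chains, which form γε and δε pairs, and with a pair of ζ chains. The tails of these chains carry immunoreceptor tyrosine-based activation motifs (ITAMs), which are phosphorylated by the kinase LCK and then bind the kinase ZAP70. CD4 binds MHC class II and brings LCK to the receptor, CD2 is an adhesion receptor, and CD5 and CD6 are scavenger receptor family proteins that tune TCR signalling. Since these genes are used mainly by T-cells, though not all of them by T-cells alone, their level in a bulk sample depends in part on the share of T-cell RNA. Fewer T-cells and less of these RNAs per T-cell cannot be told apart in bulk RNA.

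All levels are log2 processed signals minus the 75th percentile of the same array, taken over the probes detected on every array, so that a level of 0 is the signal at that percentile. Wild-type replicate E and Roquin san/+ replicate G had been read 2 grid rows away from the true places of their spots, and these were moved back before use. Only 19.4% and 21.9% of their probes were called well above background, against 53.5% to 75.5% on the other arrays, and their lowest signals stayed those of misplaced spots. There were 2 slides. Slide 1 held 5 arrays of Roquin san/+ and 2 of wild-type, and slide 2 the reverse. Roquin san/+ replicate C was dim, with a processed signal of 800 at level 0 against 4898 to 13112 on the others, and 25.0% of its probes tested lay more than 1 log2 unit from the median of the other arrays. This share was 18.3% on wild-type replicate C, 11.03% on wild-type replicate E, 9.27% on Roquin san/+ replicate E and 8.62% on Roquin san/+ replicate F, and at most 4.25% elsewhere.

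The RNA carried the marks of CD4+ T-cells. Each of the 8 genes had a probe well above background on all 14 arrays, as 11 of the 16 probes were, no spot of the 16 was saturated, and none carried an outlier flag. Where a gene had several tested probes, the one with the highest mean stood for the gene. The processed signal of these 8 probes ran from 77.3, of Cd247 on Roquin san/+ replicate C, to 109046, of Cd2.

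Cd3d encodes the δ chain of CD3. Its level on the Roquin san/+ arrays had a lowest value of 1.28, a median of 2.85 and a highest value of 3.22. On the wild-type arrays the lowest, median and highest levels were 2.10, 2.71 and 3.03. The groups overlapped, and replicates C and F were the low arrays among Roquin san/+, with wild-type replicate C the lowest of the wild-type arrays. The gene had a further probe, shown here because it covers the codons of the ITAM of CD3δ and spans an intron (mm9, plus strand, chr9:44794171-44794402, of which the probe covers 60 bases), whereas the probe that stood for the gene lay at chr9:44794452-44794511.
Cd3d, ITAM probe: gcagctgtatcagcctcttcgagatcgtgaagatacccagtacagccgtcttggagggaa
The difference between the ITAM probe and the downstream probe varied little among the arrays, by -0.19 to 0.19 around its median.

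Cd3e encodes the ε chain, which is shared by both CD3 pairs. Its Roquin san/+ levels were 0.85 at the lowest, 1.87 at the median and 2.36 at the highest. Those of wild-type were 1.09, 1.84 and 2.30. Low values were seen on Roquin san/+ replicates F and C and wild-type replicate C, and the groups overlapped. The probe that stood for the gene lay on the minus strand of chromosome 9 (mm9, chr9:44806828-44806887), and its first 30 bases are shown because it carried the level of Cd3e on every array.
Cd3e: tctccatgaatacaccagccccctctctgc

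Cd3g encodes the γ chain and had 1 probe (mm9, minus strand, chr9:44777868-44777927). The Roquin san/+ arrays held a lowest level of 0.91, a median of 2.02 and a highest level of 2.31. The wild-type arrays held 1.04, 2.17 and 2.39. The 3 lowest of all 14 arrays were again Roquin san/+ replicates C and F and wild-type replicate C, and the other 11 lay within 0.57 of each other.

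Cd3g, Cd3d and Cd3e are neighbours. In RefSeq's promoter table (GRCm38.p6) the starts of Cd3g, on the minus strand, and Cd3d, on the plus strand, lie 1355 bases apart and point away from each other, and Cd3e starts 27825 bases beyond Cd3d. The table held 5 of the 8 genes (these 3, Cd247 and Cd5). The 250 bases before the start are shown for the 3 CD3 genes, whose levels moved together (below), with matches to any of 4 motifs in capitals. All motifs were searched on both strands. The Ets core was spelled AGGAAG, one of the forms bound by Ets family factors. The E-box was spelled CAGGTG, a form bound by E proteins. The Runx core was spelled TGTGGT, and the TATA box was spelled TATAAA. The motifs do not overlap in the windows shown.
Cd3g, minus strand, chr9:44980432-44980681: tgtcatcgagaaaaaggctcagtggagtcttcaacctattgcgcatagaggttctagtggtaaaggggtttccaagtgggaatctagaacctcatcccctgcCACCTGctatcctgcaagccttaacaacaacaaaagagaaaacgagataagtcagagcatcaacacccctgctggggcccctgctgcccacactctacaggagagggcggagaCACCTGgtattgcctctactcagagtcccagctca
Cd3d, plus strand, chr9:44981536-44981785: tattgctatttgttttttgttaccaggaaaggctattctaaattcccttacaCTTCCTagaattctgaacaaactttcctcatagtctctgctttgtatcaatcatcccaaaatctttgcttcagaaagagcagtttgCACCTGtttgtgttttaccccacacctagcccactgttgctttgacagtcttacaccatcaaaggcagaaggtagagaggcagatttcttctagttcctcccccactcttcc
Cd3e, minus strand, chr9:45009612-45009861: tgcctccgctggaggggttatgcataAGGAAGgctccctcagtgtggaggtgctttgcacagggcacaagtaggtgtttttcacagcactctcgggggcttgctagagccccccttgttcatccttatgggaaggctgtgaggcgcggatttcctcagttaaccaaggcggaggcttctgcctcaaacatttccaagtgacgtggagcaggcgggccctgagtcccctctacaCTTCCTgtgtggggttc
The Ets core was in 4 of the 5 windows (all but Cd3g) and in 29.5% of all 32851 promoters of the table. The E-box was in 4 of the 5 (all but Cd3e) and in 17.2% of all. None of the 5 held the Runx core or the TATA box, which were in 14.05% and 12.4% of all. A match is only a run of letters, and binding was not measured.

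Cd247 encodes the ζ chain, which carries more ITAMs than any CD3 chain. Its level had a lowest value of -3.37, a median of 0.85 and a highest value of 0.99 on the Roquin san/+ arrays. On wild-type arrays these were -0.15, 0.64 and 1.04. The low end was set by Roquin san/+ replicate C alone, since the next lowest arrays, replicates E and F, were at -0.54 and -0.46. Cd247 had 4 probes on the plus strand of chromosome 1 (mm9), of which the one that stood for the gene lay at chr1:167791567-167791626, and another, which covers codons of the first ITAM of ζ, spanned chr1:167786567-167787585 with an intron. The whole ITAM probe and the first 30 bases of the other are shown because the arrays that were low differed between them.
Cd247, ITAM probe: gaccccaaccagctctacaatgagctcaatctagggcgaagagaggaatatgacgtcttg
Cd247, probe that stood for the gene: taggtactgtgtgtattgttctatgggtat
On the ITAM probe the lowest level, -5.57, was that of Roquin san/+ replicate E, followed by -5.09 on wild-type replicate E, where it was not well above background, and -5.02 on Roquin san/+ replicate C.

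The spot of the Cd247 probe lay in a dark area of Roquin san/+ replicate C. For each spot, the log2 differences from the other arrays were taken over the spots within 8 rows and columns that were detected on all arrays. On replicate C the median of these neighbours was below -0.5 for 12.3% of the detected spots and reached -2.68, and on the other 13 arrays it was below -0.5 for 0%. Around the Cd247 probe, at row 197 and column 88 of the grid, it was -2.26, while the probe itself was at -4.03. Around Cd2's second probe it was -1.15, and those 2 were the only ones of the 16 probes with a value under -1. On the other 13 arrays the neighbours of the 16 probes ran from -0.25 to 0.28. With the neighbours' median subtracted on every array, an alternative chosen after seeing the data, the difference between genotypes for Cd247 was -0.30 in place of -0.56, and all 8 genes were still lower in Roquin san/+, with a median of -0.14.

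**Figure D1:**
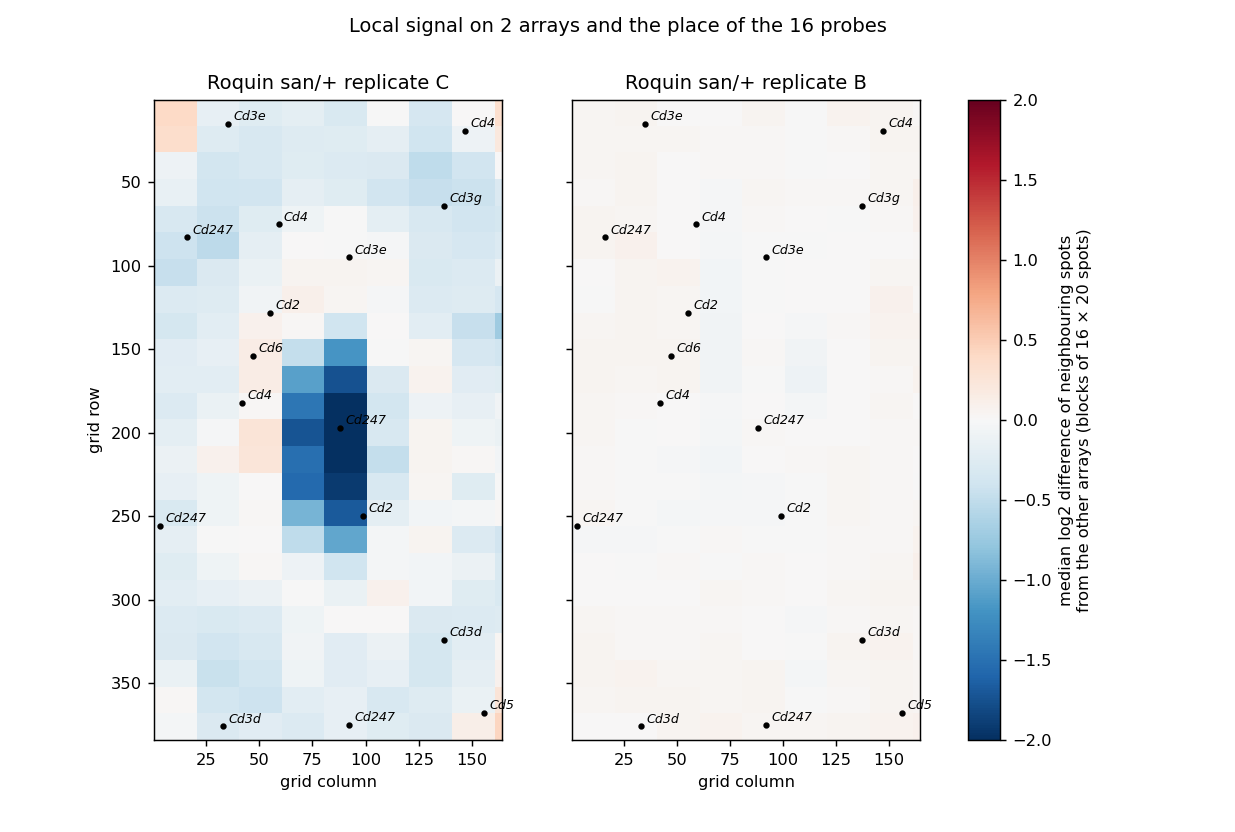
Median log2 difference of neighbouring spots from the other arrays, in blocks of 16 rows by 20 columns of the grid, on Roquin san/+ replicate C (left) and, for comparison, replicate B (right), with points at the spots of the 16 probes. The dark blue area of replicate C holds 1 probe of Cd247 and has 1 probe of Cd2 at its lower edge, and replicate B has no such area.

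Cd4 encodes the co-receptor for MHC class II. Roquin san/+ levels were -1.36 at the lowest, 0.37 at the median and 0.74 at the highest. Wild-type levels were -0.72, 0.42 and 0.73. Replicate F was the lowest of all 14 arrays, wild-type replicate C came next, and Roquin san/+ replicate C, at 0.03, lay inside the wild-type range. The probe that stood for the gene is at the 3′ end of the transcript (mm9, minus strand, chr6:124814711-124814770). An upstream probe on codons of the extracellular part (chr6:124817706-124817765) and another (chr6:124815401-124815459) were below that call on the displaced arrays and were not tested. The first 30 bases of the outer pair are shown because only the 3′ one measured Cd4 on every array.
Cd4, extracellular part: tcaagtggtggcccctgagacagggctgtg
Cd4, 3′ end: gcccactccccactcctgcttcctgagctg

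Cd2 encodes an adhesion receptor that binds CD48 in the mouse. Its Roquin san/+ levels were 2.19 at the lowest, 2.68 at the median and 3.06 at the highest. In wild-type they were 1.65, 2.75 and 3.19. The groups overlapped, with wild-type replicate C the lowest of the 14. The gene's 2 probes share 51 of their 60 bases (mm9, minus strand, chr3:101079822-101079881 for the one that stood for the gene and chr3:101079831-101079890 for the other), so their first 30 bases are shown with the shared letters in capitals.
Cd2, second probe: cccctaattAAGAAGGCAGAGTTCGTCATT
Cd2, probe that stood for the gene: AAGAAGGCAGAGTTCGTCATTTCCAATAAA
The level of the second probe minus that of the one that stood for the gene, against its median over arrays, was -1.22 on Roquin san/+ replicate C, where the second probe lay at the edge of the dark area, and between -0.07 and 0.26 on the other 13.

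Cd5 and Cd6 had 1 probe each on chromosome 19 (mm9, minus strand, chr19:10792701-10792760 and chr19:10863891-10863950). Cd5 levels were 0.43, 2.20 and 2.60 at the lowest, median and highest of the Roquin san/+ arrays, and 0.99, 2.12 and 2.58 in wild-type. Cd6 levels were 1.26, 2.55 and 2.94 in Roquin san/+ and 1.46, 2.51 and 2.88 in wild-type. For both genes Roquin san/+ replicate F was the lowest array, followed by wild-type replicate C and Roquin san/+ replicate C.

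**Figure D2:**
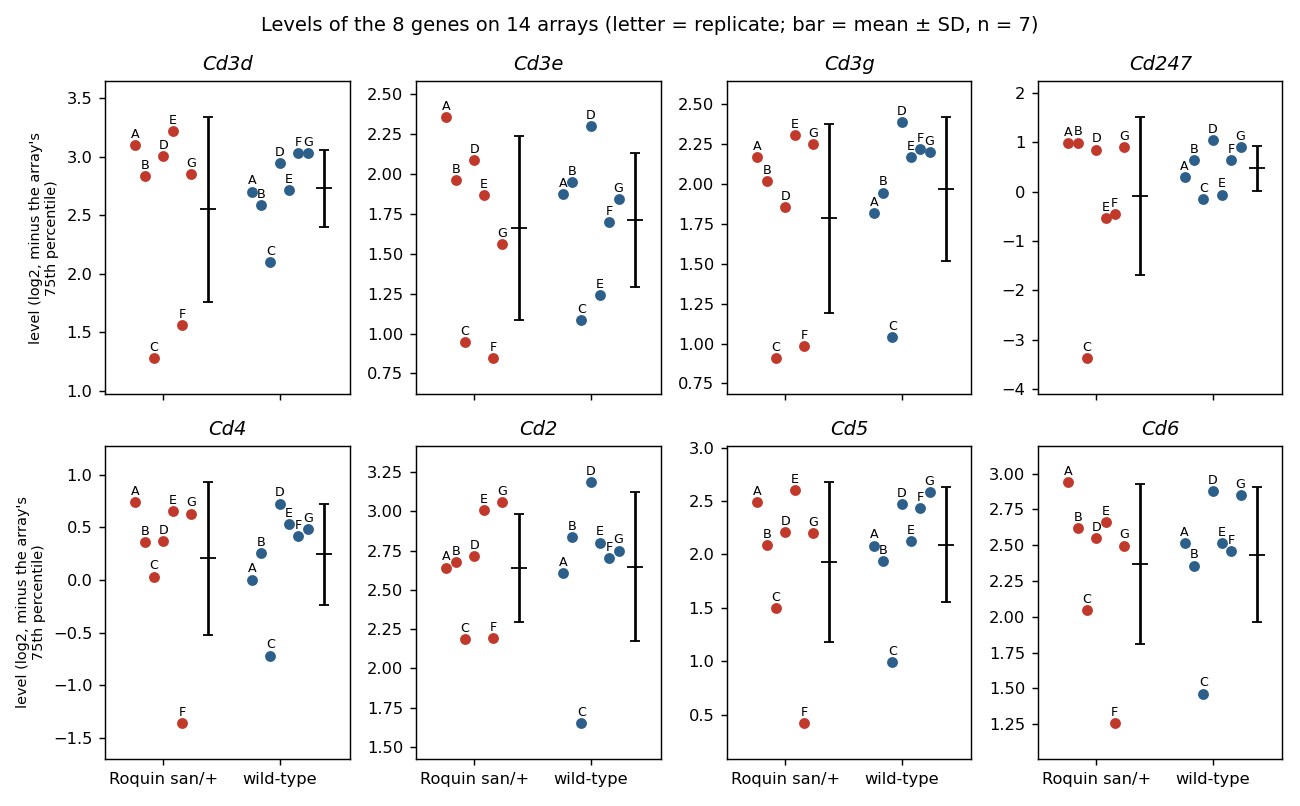
Level of each gene (log2 processed signal minus the array's 75th percentile) on the 7 Roquin san/+ (red) and 7 wild-type (blue) arrays, with the replicate letter above each point and the mean ± SD beside each group. The groups overlap for all 8 genes, and replicates C and F of Roquin san/+ and replicate C of wild-type are low.

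These genes varied widely between arrays of 1 genotype, with SDs of 0.33 to 1.597. Roquin san/+ replicates C and F and wild-type replicate C took 22 of the 24 places among the 3 lowest arrays of the 8 genes, and for 6 genes they were the 3 lowest. The exceptions were Cd247, with Roquin san/+ replicate E second lowest, and Cd4, with wild-type replicate A in place of Roquin san/+ replicate C. On the other 11 arrays the range of a gene was 0.57 to 0.74 for 6 of the genes, 1.12 for Cd3e and 1.58 for Cd247.

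Each of the 3 arrays was low in its own way. On Roquin san/+ replicate F all 8 genes were below the median of the other 6 arrays of the genotype, Cd4 by -1.86, Cd5 by -1.78, Cd3d by -1.37, Cd247 by -1.34, Cd6 by -1.32, Cd3g by -1.11, Cd3e by -1.07 and Cd2 by -0.50 (log2). There 7 of the 8 genes were at least 1 unit lower, as were 4.22% of all probes tested, whose median was -0.07. On wild-type replicate C the 8 genes lay between -0.73 (Cd3d) and -1.29 (Cd5), and 5 were at least 1 unit lower, as were 10.4% of all probes tested. Roquin san/+ replicate C was lowest for Cd247 (-4.25, in the dark area), Cd3d (-1.65) and Cd3g (-1.19), and 3 of the 8 genes were at least 1 unit lower, against 11.2% of all probes tested. Cd3e was -0.97 there, and Cd2, Cd4, Cd5 and Cd6 were -0.47 to -0.70.

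**Figure D3:**
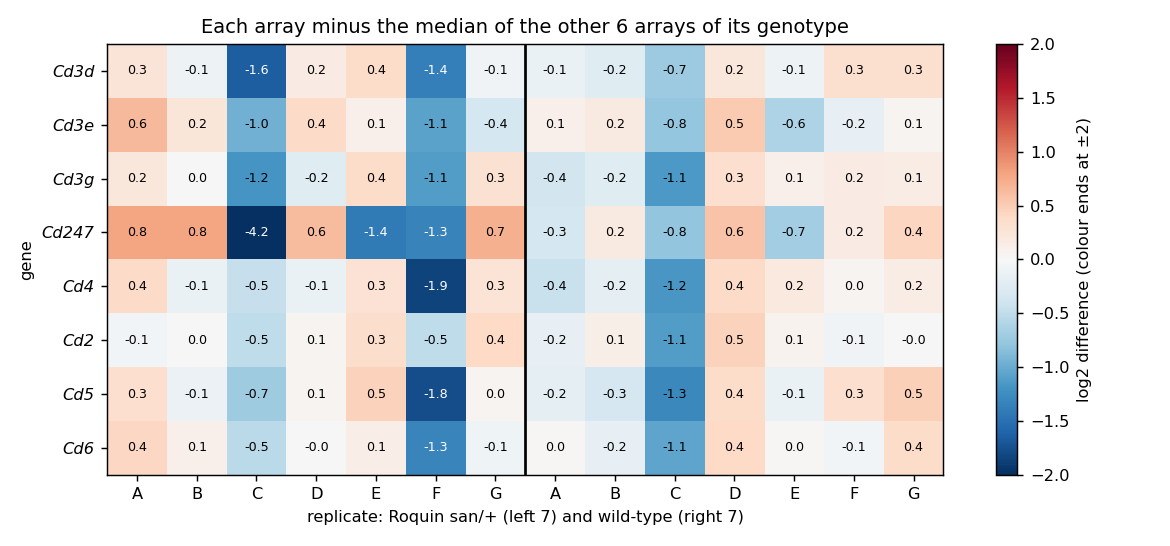
Log2 difference of each gene on each array from the median of the other 6 arrays of the same genotype, for Roquin san/+ replicates A to G (left of the line) and wild-type replicates A to G (right), with the colour scale ending at ±2. The columns of Roquin san/+ C and F and wild-type C are blue for all 8 genes.

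Levels of the genes moved together across the 14 arrays. Pearson's r of a gene with the mean of the other 7 was 0.95 for Cd3g, 0.94 for Cd3d, 0.89 for Cd6, 0.88 for Cd5, 0.86 for Cd3e, 0.81 for Cd4, 0.80 for Cd2 and 0.60 for Cd247, and Spearman's rho ran from 0.51 to 0.79. The 3 low arrays carried much of this. Over the other 11, r ran from 0.16 for Cd247 and 0.26 for Cd2 to 0.66 for Cd4 and 0.78 for Cd6.

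Markers of some other cells were high on Roquin san/+ replicate F, where these genes were low. Levels of the genes in each marker list were summed on the linear scale, on which 1 is the 75th percentile of the array. On Roquin san/+ replicate F the sum was 24.3 for 9 B-cell genes, 88.1 for 9 myeloid genes, 58.2 for 5 erythroid genes, 2.39 for 2 CD8 T-cell genes, 1.13 for 5 natural killer (NK) cell genes and 0.882 for 5 platelet and megakaryocyte genes. This array held the highest level of its genotype for 8 of the 9 B-cell genes, 8 of the 9 myeloid genes and all 5 erythroid genes. Most of its erythroid sum came from Hba-a1 (level 5.72) and most of its CD8 sum from Cd8b1 (0.99). Most of its myeloid sum came from S100a9 (5.31), Lyz2 (4.78) and S100a8 (3.87). These genes were named after their values were seen. On the 11 arrays other than the 3 low ones, the sums were 0.248 to 6.25 (B-cell), 1.66 to 11.7 (myeloid), 0.321 to 13.8 (erythroid), 0.0970 to 0.226 (CD8), 0.0555 to 0.185 (NK) and 0.0163 to 0.0979 (platelet).

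The other low arrays differed from replicate F in these lists. Wild-type replicate C had a myeloid sum of 29.5 and an erythroid sum of 24.6, each the highest of wild-type, but a B-cell sum of 0.540 and a CD8 sum of 0.0722. Most of that erythroid sum came from Hba-a1 (level 4.56), though the array was highest of wild-type for all 5 erythroid genes. Roquin san/+ replicate C had a myeloid sum of 34.8, of which Itgam, named after its values were seen, made up 27.5, and it was highest of its genotype for 1 of the 9 myeloid genes. Without Itgam its sum of 8 myeloid genes was 7.26, inside the range of 1.23 to 11.3 on the 11 arrays, against 86.5 on replicate F and 29.3 on wild-type replicate C. Roquin san/+ replicate C also had a plasma cell sum of 15.04, with 9.67 for erythroid and 1.85 for B-cell genes. Most of each came from 1 gene, Jchain (level 3.84), Hba-a1 (3.18) and Cd22 (0.16, named after its values were seen). This array was highest of its genotype for 4 of 5 plasma cell, 0 of 5 erythroid and 1 of 9 B-cell genes. The sum of 5 plasma cell genes was 14.6 on wild-type replicate C and 5.20 on Roquin san/+ replicate F, against 2.30 to 8.45 on the other 11. The part of these cells in the levels of the 8 genes was not tested.

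Single markers differed in which of the 3 arrays stood out. Csf1r, the macrophage growth factor receptor, was at 1.34 on Roquin san/+ replicate F, at -1.71 on wild-type replicate C and at -3.63 to -1.80 on the 11 remaining arrays, a range that held Roquin san/+ replicate C at -2.13. Alas2, the erythroid enzyme of haem synthesis, was at 0.83 on replicate F, at -3.36 on wild-type replicate C, at -3.47 on Roquin san/+ replicate C and at -10.30 to -3.88 on the 11. Cd8a was at -1.32 on replicate F and at most -5.42 on the 11. Ncr1, an NK cell receptor, was at -3.44 on replicate F, above the highest of the 11 at -5.67, which is the lowest signal left on the displaced wild-type replicate E. Pf4, a platelet chemokine, was at -1.43 on replicate F and at most -4.04 on the 11. On Roquin san/+ replicate C these were -5.30 (Ncr1) and -3.94 (Pf4), and on wild-type replicate C -6.28 and -3.55. Jchain, the joining chain of secreted antibody, was at 3.84 on both replicates C and at 2.26 on replicate F. No marker was listed at 0, and on the 12 arrays that needed no move at least 1 gene of every list, and all 9 myeloid and 5 plasma cell genes, were well above background.

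**Figure D4:**
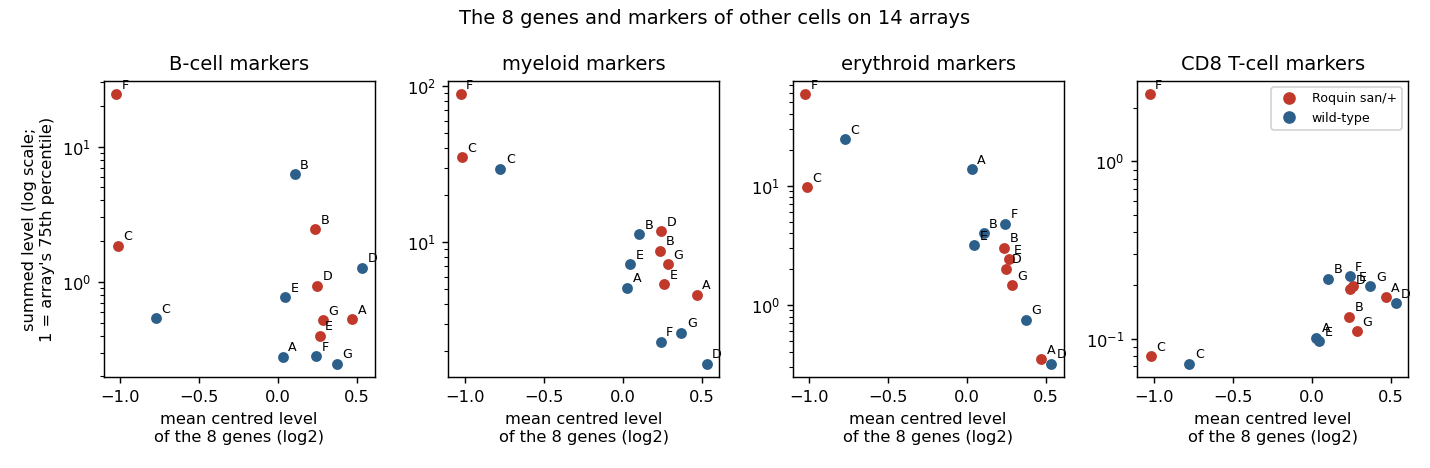
Summed level of B-cell, myeloid, erythroid and CD8 T-cell markers (log axis, 1 is the array's 75th percentile) against the mean level of the 8 genes, each centred on its own mean (log2), on 14 arrays with their replicate letters. Roquin san/+ F is at the upper left of every panel, and wild-type C lies above the 11 remaining arrays for myeloid markers, as does Roquin san/+ C through Itgam alone. On the horizontal axis Roquin san/+ C is drawn to the left by Cd247, whose spot lay in the dark area of that array.

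The difference between upstream and downstream probes also varied between arrays. Over 2263 pairs of probes at least 400 bases apart on 1 transcript, the median of upstream minus downstream, each pair centred on its own median, was -0.63 on Roquin san/+ replicate E, 0.42 on replicate C and -0.18 to 0.16 on the other 12. Of the pairs given here, those of Cd4 (-0.93) and Cd247 (-1.30) were lower than that median on Roquin san/+ replicate E. Those of Cd3d (0.19) and Cd2 (-0.03), whose probes lie closer together, were not. The Cd247 pair, whose probes are assigned to different transcripts, was also at -1.30 on wild-type replicate E. There the median of all pairs was 0.0052, and the ITAM probe was not well above background. The RNA integrity of every sample was stated in the labels only as a bound, so it cannot be set beside these values.

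The main comparison asked whether the 8 genes differed between Roquin san/+ and wild-type. None passed the test. The limma fit over 12863 tested probes called 0 probes (0%) at an adjusted p below 0.05, while 418 (3.25%) were higher and 103 (0.801%) lower in Roquin san/+ at an unadjusted p below 0.05. The share of these that were higher, 80.2%, depended on the scaling and was 35.6% with the percentile taken over all probes. None of the 8 genes passed either threshold. All 8 had a lower mean in Roquin san/+, with a median difference of -0.11 against -0.0021 over all tested probes. For no gene were the groups apart, as they were for 4 of all tested probes (0.0311%).

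The differences were small beside their errors. Cd247 differed by -0.56 (log2, 95% interval -1.77 to 0.65), from -0.09 ± 1.597 (SD, n = 7) in Roquin san/+ to 0.47 ± 0.46 (SD, n = 7) in wild-type. This estimate takes in the spot in the dark area of Roquin san/+ replicate C. The medians of the same probe went the other way, with 0.85 in Roquin san/+ and 0.64 in wild-type. On the ITAM probe of Cd247 the difference of means was -0.23 (SE 0.53). Cd3g differed by -0.18 (-0.75 to 0.38), Cd3d by -0.18 (-0.82 to 0.46), Cd5 by -0.16 (-0.85 to 0.53), Cd6 by -0.07 (-0.62 to 0.49), Cd3e by -0.05 (-0.60 to 0.49), Cd4 by -0.04 (-0.69 to 0.61) and Cd2 by -0.01 (-0.47 to 0.45). Adjusted p-values in limma ran from 0.961 to 0.997. Two-sided exact permutation tests over all arrangements of the arrays into groups of 7, unadjusted and for 1 gene each, gave p of 0.475 (Cd247) to 0.974 (Cd2). The intervals reach 0.38 (Cd3g) to 0.65 (Cd247) upward and -0.47 (Cd2) to -1.77 (Cd247) downward, and the data allow any change between these bounds.

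The direction rested on single arrays. Without Roquin san/+ replicate F only 3 of the 8 genes were lower in Roquin san/+, with a median of 0.07, and Cd4 was at 0.22. Without Roquin san/+ replicate C 5 were lower, with a median of -0.01, and Cd247 was at -0.02. Without wild-type replicate C all 8 were lower, with a median of -0.26. Slide 1, which held both of these arrays, gave lower means for all 8 genes, with a median of -0.46. Slide 2, which held wild-type replicate C, gave higher means for 7 of 8, with a median of 0.27, and Cd247 at -0.20.

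**Figure D5:**
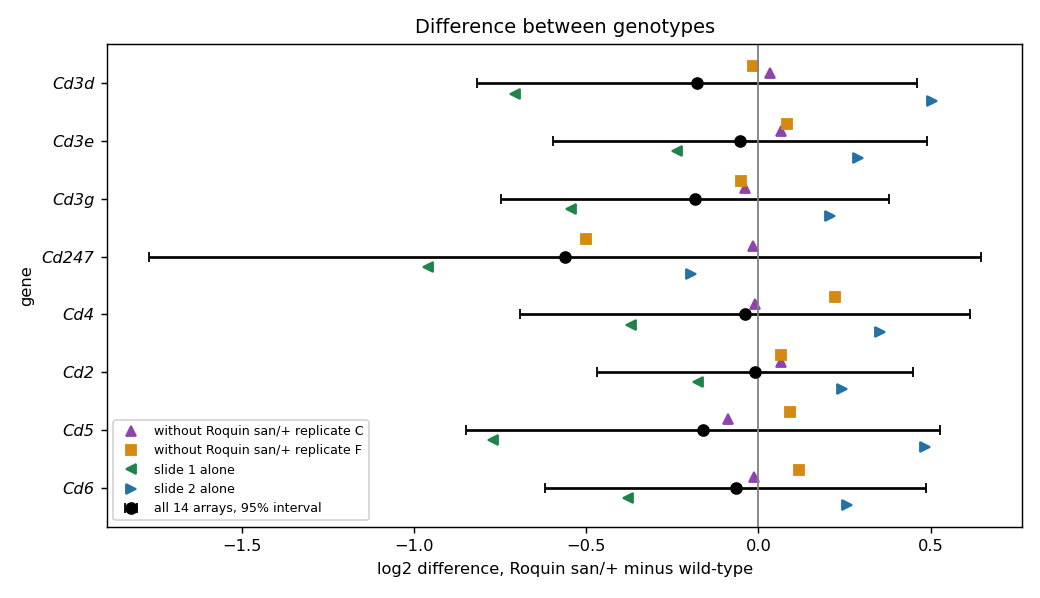
Difference between genotypes for each gene (log2, Roquin san/+ minus wild-type) over all 14 arrays with its 95% interval (black), without Roquin san/+ replicate C or F, and within each slide. Every interval holds 0, and the values of slide 1 and slide 2 fall on opposite sides of 0 for all genes but Cd247.

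Other genes of the pathway gave no calls. Of 20 genes of proximal TCR signalling, 19 were tested, of which 8 were higher and 11 lower in Roquin san/+, with a median of -0.03 and 0 at an adjusted p below 0.05. The kinase Lck differed by 0.03 (SE 0.18), Zap70 by -0.11 (SE 0.34), the adaptor Lat by -0.03 (SE 0.33) and the adaptor Lcp2 (SLP-76) by 0.06 (SE 0.25). Of 12 regulators of the CD4 lineage and of T-cell identity, all tested, 3 were higher and 9 lower, with a median of -0.11. Zbtb7b (ThPOK), the factor that commits cells to the CD4 lineage, differed by -0.05 (SE 0.23), Gata3 by 0.09 (SE 0.28), Tcf7 by -0.21 (SE 0.27) and Lef1 by -0.58 (SE 0.28). Of 8 transmembrane adaptors 6 were tested, 5 higher and 1 lower, with a median of 0.13. Trat1, which binds the TCR complex, differed by -0.40 (SE 0.37), Sit1 by 0.12 (SE 0.31), Lax1 by 0.49 (SE 0.28) and Pag1 by 0.10 (SE 0.22).

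All 7 partners of CD2, CD5 and CD6 were tested, of which 6 were higher and 1 lower, with a median of 0.19. Cd48, the ligand of CD2, differed by 0.19 (SE 0.21), Alcam, the ligand of CD6, by 1.26 (SE 0.33), Cd72, a proposed ligand of CD5, by 0.50 (SE 0.42) and Cd2ap, which binds the tail of CD2, by 0.10 (SE 0.20). Alcam had an unadjusted p of 0.00172 and an adjusted p of 0.959 in limma. Its level on Roquin san/+ replicates F and C was 1.16 and 1.05 above the median of the other 6 arrays of the genotype. The median of the Roquin san/+ arrays other than F was -2.66, and that of the wild-type arrays other than C was -3.55. At an unadjusted p below 0.05 these 4 lists held only Alcam and, named after their values were seen, the phosphatase gene Ptpn22 (0.47, SE 0.19, p of 0.0298) and Runx3 (0.42, SE 0.14, p of 0.0113), with adjusted p of 0.959 for both. None of the 4 lists had a gene lower at that threshold. Of 8 constant genes of TCR chains, 2 had a name on the array and 0 had a tested probe. The other cells' lists had 0 calls too, with medians of 0.54 for the 1 CD8 gene tested, 0.86 for 3 B-cell, 0.96 for 7 myeloid, -0.37 for 1 NK, -0.06 for 1 erythroid and 0.66 for 3 plasma cell genes, and 0 platelet genes were tested. At an unadjusted p below 0.05 in limma, 2 of the 7 myeloid and 2 of the 3 plasma cell genes were higher. Of all tested probes 3.25% were higher at that threshold, a share that depended on the scaling. The B-cell and myeloid medians take in Roquin san/+ replicate F, which was highest of its genotype for 8 of the 9 genes in each list.

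Most of the signalling genes were also below the other arrays of their genotype on the 3 low arrays. On wild-type replicate C all 19 signalling genes and 11 of 12 regulators were below the median of the other 6 wild-type arrays, with medians of -1.27 and -1.01. On Roquin san/+ replicate F 13 of 19 and 9 of 12 were below, with medians of -0.84 and -0.95. On Roquin san/+ replicate C 17 of 19 and 10 of 12 were below, with medians of -0.66 and -0.51. Of all probes tested, 58.7% were below on wild-type replicate C, 57.4% on Roquin san/+ replicate F and 50.6% on Roquin san/+ replicate C. Of the adaptors and partners, 3 of 6 and 3 of 7 were below on replicate F, with medians of -0.06 and 0.10. These were 5 of 6 and 5 of 7 on wild-type replicate C, and 3 of 6 and 6 of 7 on Roquin san/+ replicate C. Values on replicate F were -0.70 for Lck, -1.38 for Zap70, -1.44 for Lat, -1.61 for Lef1 and -1.54 for Tcf7.

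Genes were then ranked by how closely they followed the 8. Among 8048 other genes tested, the highest Pearson's r with the mean centred level of the 8 genes over 14 arrays belonged to Skap1, an adaptor of TCR signalling (0.97), Il6st, the shared subunit of IL-6 family receptors (0.96), the receptor kinase gene Tyro3 (0.96), the co-stimulatory receptor gene Cd28 (0.95), Tnfaip8l1 (0.95) and Bcl11b, a T-cell transcription factor (0.95). Spearman's rho for these was 0.72 (Tyro3) to 0.95 (Il6st), and r without Roquin san/+ replicate F was 0.92 to 0.96. The lowest r belonged to Slc25a37, a mitochondrial iron importer (-0.94), Ftl1, ferritin light chain (-0.94), the transporter gene Slc16a6 (-0.93) and Fech, the last enzyme of haem synthesis (-0.92), at rho of -0.77 to -0.96 and r without replicate F of -0.89 to -0.92. Without the 3 low arrays r was 0.59 (Tyro3) to 0.85 (Il6st) at the high end, and -0.58 (Ftl1) to -0.85 (Slc25a37) at the low end. These values describe 14 arrays that share 3 low ones and carry no test. The mean level they refer to takes in Cd247 on Roquin san/+ replicate C (-3.37), whose spot lay in the dark area. The ranking was not repeated without Cd247.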

How the data were processed

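Total RNA of CD4+ T-cells was labelled with Cy3 and hybridised to 1-colour arrays. The authors deposited spot intensities from Agilent Feature Extraction 10.5.1.1 per the labels, as a processed intensity already background-subtracted, mean and background intensities, and a table of log2 values whose method was not stated. The paper describes other samples, so only its style was used. Probe coordinates are mm9.

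Arrays were compared over 169 grid shifts, 2 were moved by 2 rows, and spots of a probe were averaged without control and outlier spots. From each array the 75th percentile of the 10320 probes detected on every array (flagged as well above background) was subtracted. A probe detected on all 7 arrays of at least 1 genotype was tested (12863; 1906 passed through Roquin san/+ alone and 637 through wild-type alone) with limma 3.58.1 in R 4.3.3 (Benjamini-Hochberg, threshold 0.05), after a check on simulated data. Python 3.11.15 was used otherwise. Number of arrays limits the precision.

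The members and lists were chosen with earlier results of these data known. The genes named were the 8, the first 4 tested of each pathway list, the first of each marker list, and the 6 most and 4 least alike. Some results are not reported here. Alternatives covered background correction, normalization, filter, probe choice, slide, replicate letter, the authors' log2 values, deposited probe names, neighbouring spots and leaving out each array. The letters were not used to pair arrays in the main fit. Deviations of same-lettered arrays correlated at -0.47 to 0.41. This cannot settle whether the letters pair the samples, since arrays of different letters were not compared.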

Additional observations from a re-analysis of the deposited data

Results flagged for a closer look

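The level of each of the 8 genes was examined within each genotype, in 16 groups of 7 arrays, for an end array whose gap to the next was, as a share of the group's range, above Dixon's 95% limit, at which chance marks about 1 group in 20. Of the wild-type arrays, replicate C stood apart for Cd3g (level 1.04, next array 1.82), Cd2 (1.65, next 2.61), Cd5 (0.99, next 1.94) and Cd6 (1.46, next 2.36). Of the Roquin san/+ arrays, replicate C stood apart for Cd247 (-3.37, next -0.54) and replicate F for Cd4 (-1.36, next 0.03). The marks share arrays and are not independent, and where 2 arrays of a group were low together, as C and F were for Cd3d, this rule cannot mark either.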

How the results depend on the processing

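No alternative fitted called any probe, and the lowest adjusted p of a gene of the 8 in any setting was 0.693. The median difference of the 8 genes was -0.29 with the 75th percentile over all probes (which moved all tested probes to a median of -0.17, so that the 8 lay -0.11 from it as before), -0.13 with quantile normalization, -0.13 with normexp, -0.08 with slide as a block and -0.07 on the authors' log2 values. In these last 4 settings all tested probes had medians of -0.07, 0.04, -0.01 and -0.06, so on the authors' values the 8 genes lay -0.0093 from all probes. It ran from -0.26 to 0.07 when each array was left out. The replicate letter as a block left each difference as it was, with 0 calls and 623 probes at an unadjusted p below 0.05 against 521. With slide as a block too the median was -0.41.

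Signs of single genes turned in several settings, and the cause was not tested. Cd2 was 0.0068 with quantile normalization, 0.034 with slide as a block and 0.027 on the authors' values. Cd3e was 0.00018 with normexp, 0.026 with slide as a block and 0.054 on the authors' values. Cd4 was 0.014 as the mean of its probes. On slide 2 alone Cd3d was 0.50, Cd3e 0.29, Cd3g 0.21, Cd4 0.35, Cd2 0.24, Cd5 0.48 and Cd6 0.26. Leaving out 1 array gave -0.29 to 0.032 for Cd3d, -0.17 to 0.084 for Cd3e, -0.34 to -0.04 for Cd3g, -0.74 to -0.02 for Cd247, -0.20 to 0.22 for Cd4, -0.17 to 0.081 for Cd2, -0.34 to 0.090 for Cd5 and -0.23 to 0.12 for Cd6. Of the 8 genes, 4 were lower without wild-type replicate D and 5 without wild-type replicate G. Under the deposited names only Cd3d and Cd4 had a tested probe, so the others have no value there.

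Probes at an unadjusted p below 0.05 numbered 59 under the deposited names, 253 with slide as a block, 301 on slide 2, 323 without wild-type replicate A, 782 without a filter, 788 without Roquin san/+ replicate E, 1100 with detection over 12 arrays, 1109 without Roquin san/+ replicate G, 1977 without wild-type replicate E and 2085 without both displaced arrays, with more probes tested in 6 of these. Of them 80.2% were higher in Roquin san/+ in the main setting, 35.6% with the percentile over all probes, 56.5% with quantile normalization and 57.3% on the authors' values. Detection on the displaced arrays limits all dim probes, Cd4's upstream ones among them.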

Other observations

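Fcer1g, listed with the adaptors, and Cd72, listed with the partners, were high on Roquin san/+ replicate F, where the 8 genes were low. Fcer1g, whose product is the γ chain of Fc receptors, was 3.31 log2 units above the median of the other 6 Roquin san/+ arrays there and 1.68 above that of the other wild-type arrays on wild-type replicate C. Cd72, a surface protein of B-cells, was 2.61 above on replicate F and -0.62 on wild-type replicate C. Trat1, which binds the TCR complex, was -2.13 on replicate F and -0.86 on wild-type replicate C. Fcer1g was named after its values were seen.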
